A study of Mus musculus with 2 samples.

Results

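Transcripts of the Fc receptor genes were followed through cells sorted from mouse brain. The members are 6 of the 32285 genes measured, taken by their symbols. They are Fcgr1, Fcgr3 and Fcgr4, the activating receptors for IgG, Fcgr2b, the inhibitory receptor, Fcer1g, the signalling chain that the activating receptors share, and Fcgrt, the neonatal Fc receptor. All 6 were detected in both libraries. Each genotype gave 1 library, made from the pooled brains of 6 male mice of 23 weeks. Disc1 LI/LI mice are homozygous for a locus impairment of Disc1, which is germline and not limited to microglia, while both copies are wild type in their Disc1 WT/WT littermates. Values given as a pair have Disc1 WT/WT first. Actinomycin D, an inhibitor of transcription, was present during dissociation in both pools, and CD45low CD11b+ cells were then sorted for droplet sequencing. Both were also incubated before the sort with an antibody against CD16 and CD32, the proteins of Fcgr3 and Fcgr2b. The values here are RNA counts, and no receptor protein was measured. With 1 library per genotype no test was possible, and a difference between genotypes cannot be told apart from a difference between 2 pools, or from the droplet chip and kit, of which the methods name 2 versions without saying which library had which.

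Fc receptors bind the constant part of antibodies and let phagocytes respond to antibody-coated targets. Engagement of an activating receptor leads to phosphorylation of the ITAM of the γ chain and recruitment of the kinase SYK, whereas FcγRIIB carries an ITIM that recruits phosphatases and dampens the response. FcRn, the product of Fcgrt, works inside the cell with β2-microglobulin, returning IgG and albumin from endosomes to the surface, and is known for this in endothelium and macrophages. Microglia are known to carry Fcγ receptors, through which they take up antibody-bound material.

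The coding bases of both signalling motifs are shown first, because the division into activating and inhibitory receptors used below rests on them. They were read from the GENCODE transcripts of mm10, in the longest open reading frame. In Fcer1g, codons 65 to 79 of 86 hold the ITAM, with the 2 tyrosine codons and the 2 leucine codons in capitals, while a second coding transcript, of 92 codons, held no match to it. In Fcgr2b, codons 317 to 322 of 340 hold the ITIM, with its isoleucine, tyrosine and leucine codons in capitals, and the same bases were found in all 4 coding transcripts of the gene.
Fcer1g ITAM: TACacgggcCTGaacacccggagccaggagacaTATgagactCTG
Fcgr2b ITIM: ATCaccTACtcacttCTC
The ITAM pattern was found in no other member. The looser ITIM pattern, a tyrosine codon between aliphatic codons, also matched 3 stretches of Fcgr1 and 1 each of Fcgr4, Fcgrt and Fcer1g, so a match of letters alone does not mark a working motif.

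The members lie on 3 chromosomes of mm10. Fcgr2b (chr1:170958617-170976547, minus strand), Fcgr4 (chr1:171018920-171029761, plus strand), Fcgr3 (chr1:171051174-171064935, minus strand) and Fcer1g (chr1:171229572-171234365, minus strand) are neighbours on chromosome 1. Fcgr1 (chr3:96282909-96293969, minus strand) and Fcgrt (chr7:45092990-45103851, minus strand) lie apart from it. The transcripts of Fcgr3 and Fcgr2b share an unbroken run of 129 bases, but within their last 500 bases, where 3′ reads fall, no 2 members shared more than 14 bases in a row. Fcgr2b and Fcgrt each overlap an annotated antisense gene, Gm38204 and Gm45669, and Fcgr3 and Fcgr4 each hold a small RNA gene on their own strand.

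The promoters of the activating receptors are shown as a description. No binding or promoter activity was measured, and the part of these bases in the levels below was not tested. RefSeq promoters of GRCm38.p6, 250 bases before to 50 after the start, were given for 6 of 6 members. They were searched on both strands for the interferon-γ-activated site TTCNNNGAA, the interferon-stimulated response element, which is GAAA repeated after a gap of 2 bases, and the PU.1 core GAGGAA, which reads TTCCTC on the other strand. These occur in 8.30%, 3.44% and 28.3% of all 32851 promoters, and a match is a description and not a site. The 120 bases before each RefSeq start follow, with the matches in capitals. Fcgr3 has 2 RefSeq starts, of which only the first is shown, and its window lies inside the gene span given above. The last bases of the Fcgr4 window also fall inside the span given for that gene.
Fcgr1, chr3:96293970-96294089, minus strand: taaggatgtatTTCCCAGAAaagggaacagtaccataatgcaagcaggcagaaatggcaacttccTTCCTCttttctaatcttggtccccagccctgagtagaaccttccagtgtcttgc
Fcgr4, chr1:171018806-171018925, plus strand: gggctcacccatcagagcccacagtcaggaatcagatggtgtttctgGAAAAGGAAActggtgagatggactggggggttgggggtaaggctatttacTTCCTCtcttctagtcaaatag
Fcgr3, chr1:171059404-171059523, minus strand: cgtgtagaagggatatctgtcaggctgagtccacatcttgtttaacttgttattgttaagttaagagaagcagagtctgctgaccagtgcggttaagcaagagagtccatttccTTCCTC
The interferon-γ-activated site of Fcgr1 lay from -109 to -101 and the response element of Fcgr4 from -73 to -64, counted from the start. No match was found for Fcgr2b, Fcer1g or Fcgrt, which says only that these letters are not in that window.

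Of 7038 and 7834 barcodes, 7032 and 7817 passed a floor of 200 genes and a ceiling of 10% mitochondrial UMIs, with a median of 4234.5 and 4566 UMIs. A cell was counted as microglia when P2ry12, Gpr34, Tmem119, Siglech, Fcrls and Olfml3 gave at least 0.5% of its UMIs and S100a8 with S100a9 under 1%, and as a neutrophil when S100a8 and S100a9 gave at least 3%. This left 6180 and 1950 microglia, 116 and 3622 neutrophils, and 736 and 2245 other cells, so the Disc1 LI/LI library held fewer microglia than neutrophils in spite of the CD45low gate. All 8 microglia markers and all 10 neutrophil markers outside the gates were higher in their class than in the rest of the library, in both libraries. These classes are ranges and not types, with 302 and 210 cells within 20% of the microglia threshold. The targeted gene Disc1 had 642 and 22 UMIs, in keeping with the labels, and 12 barcodes occurred in both libraries.

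Fcgr1 encodes the high-affinity IgG receptor FcγRI. Its level, in CPM as for all levels below (UMIs of the gene per 1000000 UMIs of the class), was 370 (95% counting interval 363 to 377) in Disc1 WT/WT microglia and 378 (365 to 392) in Disc1 LI/LI microglia. Intervals for levels are exact Poisson and those for shares exact binomial, and all cover counting error only. Fcgr1 was thus level between the libraries in microglia, where 77.2% and 74.5% of cells had a UMI. Cells with at least 3 genes of a border macrophage list, such as Mrc1, Cd163 and Lyve1, held it at 368 (323 to 418) in 159 Disc1 WT/WT cells and 415 (311 to 543) in 30 Disc1 LI/LI cells. These neighbours at the top of the order did not differ beyond their counting error. Neutrophils and every other named list but the dendritic list of Disc1 WT/WT, at 206, were below 100 CPM. Classical monocyte list cells had 82.0 and 76.9, and nonclassical monocyte list cells had 47.2 and 28.4. No UMI of Fcgr1 was found in 21 and 26 cells of the endothelial list, where 3 counts would have given 44.6 and 49.7 CPM.

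Fcgr3 encodes the low-affinity activating receptor FcγRIII. It was at 1089 (1077 to 1101) in Disc1 WT/WT microglia and 1204 (1180 to 1228) in Disc1 LI/LI microglia, and 96.0% and 96.9% of microglia had a UMI. Microglia stood above every other group in both libraries, with the border macrophage list next at 765 (699 to 835) and 658 (525 to 814). Neutrophils had 418 (371 to 470) and 269 (262 to 276), nonclassical monocyte list cells 370 and 303, and classical monocyte list cells 305 and 383. In Disc1 WT/WT the interval of the nonclassical monocyte list, 271 to 491, overlapped those of the other two, so its place in the order is not resolved.

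Fcgr4 encodes FcγRIV, a receptor for IgG2 subclasses in the mouse, and had an order unlike that of the other members. Nonclassical monocyte list cells, chosen by genes such as Ace, Treml4 and Cd300e, held 480 (367 to 616) CPM in 39 Disc1 WT/WT cells and 672 (566 to 792) in 73 Disc1 LI/LI cells. Microglia held 14.6 (13.3 to 16.1) and 20.4 (17.5 to 23.8), which is 32.8-fold and 32.9-fold less. Of the cells of that list 69.2% and 84.9% had a UMI of Fcgr4, and 30.8% and 43.1% after thinning to 1000 UMIs a cell. The log2 ratio of nonclassical monocyte list cells to microglia was 5.03 (4.62 to 5.42) and 5.04 (4.71 to 5.37), the same within counting error in both libraries. Against classical monocyte list cells, at 28.1 and 25.4, the log2 ratio was 4.09 (3.18 to 5.12) and 4.72 (4.42 to 5.02). Neutrophils lay between microglia and nonclassical monocyte list cells, at 34.5 (21.9 to 51.7) and 43.5 (40.7 to 46.3). The dendritic list, at 78.3 and 31.6, was above neutrophils in Disc1 WT/WT alone. The border macrophage list, at 15.5 and 70.5, was above them in Disc1 LI/LI alone, from 9 UMIs. No UMI of Fcgr4 was found in the 15 and 57 cells of the NK list, where 3 counts would have given 48.2 and 14.1 CPM.

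Fcgr2b, the inhibitory receptor, was highest in the border macrophage list in both libraries. These cells held 598 (540 to 661) and 540 (420 to 684) CPM, against 320 (314 to 327) and 261 (250 to 272) in microglia. The log2 ratio over microglia of the same library was 0.90 (0.75 to 1.05) in Disc1 WT/WT and 1.05 (0.68 to 1.40) in Disc1 LI/LI. Classical monocyte list cells held 143 and 166, and dendritic list cells 280 and 135. Of the 14 basophil and mast list cells of Disc1 LI/LI, 78.6% had a UMI of Fcgr2b, with a median of 11455 UMIs a cell, and none had one of Fcgr1, Fcgr4 or Fcgrt, with 19.2 CPM as the level of 3 counts.

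Fcer1g encodes the Fc receptor γ chain, which NK cells and basophils also use with other receptors. It was at 3369 (3348 to 3390) in Disc1 WT/WT and 4132 (4088 to 4177) in Disc1 LI/LI microglia and was found in 99.5% and 99.9% of them. The highest level was again in nonclassical monocyte list cells, at 5849 (5436 to 6285) and 6373 (6038 to 6723). NK list cells had 4002 and 3824, a log2 ratio to microglia of 0.25 (0.06 to 0.43) and -0.11 (-0.21 to -0.01), while Fcgr4 was not found in them and Fcgr3, the receptor that NK cells are known for, was at 113 and 127, or 10.3% and 10.6% of the microglial level. Genes that mark microglia reached 4.66% to 35.0% and 2.70% to 26.0% of their microglial level in the same NK list cells. Their medians were 13.6% and 6.22%. Fcgr3 there lay within both ranges, below the median in Disc1 WT/WT and above it in Disc1 LI/LI. Endothelial list cells were low, at 446 and 182. T list cells held 1282 and 1306, or 38.1% and 31.6% of the microglial level, above the 9.46% to 26.7% and 8.40% to 18.7% of the microglia markers in them.

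Fcgrt, the neonatal Fc receptor, had its highest levels in 2 unlike groups. Border macrophage list cells held 355 (311 to 404) and 258 (178 to 363) CPM, and endothelial list cells 327 (205 to 495) and 332 (202 to 512). Both lay above microglia, at 90.3 (86.9 to 93.8) and 98.3 (91.6 to 105). Over microglia the log2 ratio was 1.98 (1.78 to 2.17) and 1.40 (0.85 to 1.90) for the border macrophage list and 1.86 (1.18 to 2.46) and 1.75 (1.04 to 2.39) for the endothelial list. B2m, whose product pairs with FcRn, was at 1545 and 1966 in the border macrophage list, 668 and 746 in the endothelial list and 1075 and 1218 in microglia.

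**Figure D1:**
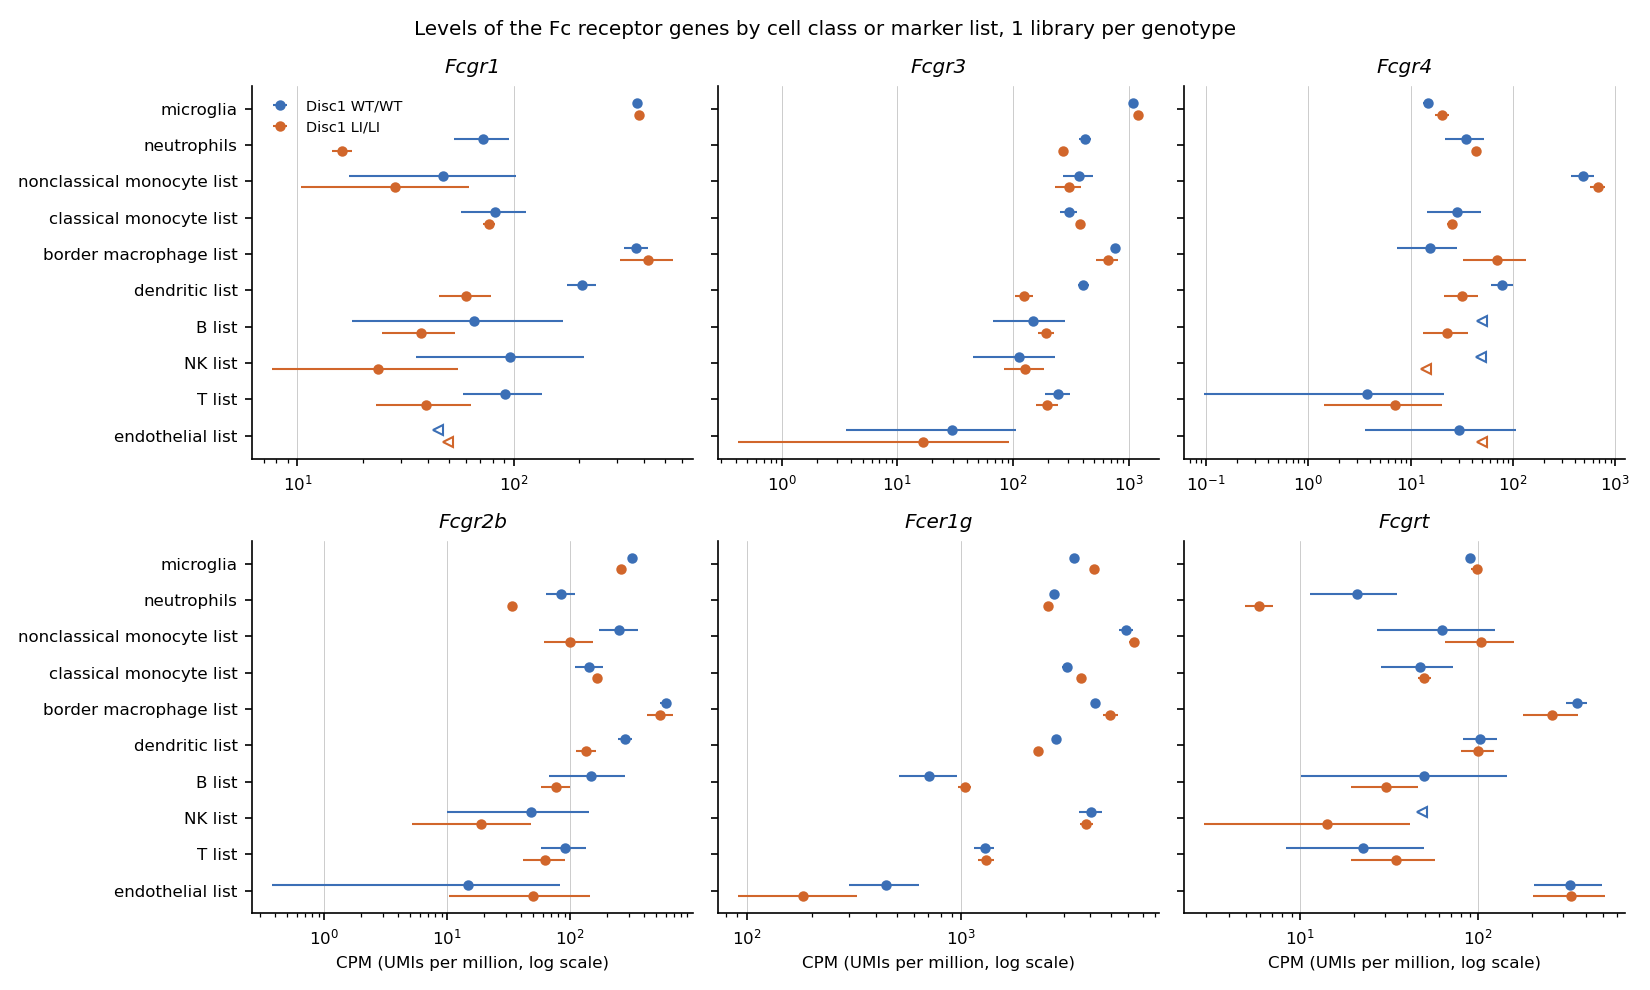
Level of each member in CPM (log scale) for the classes and marker lists on the vertical axis, with 1 point per library and its 95% Poisson counting interval. Open triangles mark groups with no UMI at the level that 3 counts would give. Fcgr4 stood out in nonclassical monocyte list cells, at 480 and 672, and Fcgrt in border macrophage and endothelial list cells.

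Within microglia, Fcgr1 was higher in the cells with at least 3 of 12 interferon genes, such as Ifit3, Isg15 and Irf7, none of which is a member. It was at 615 (555 to 680) in 102 such cells of Disc1 WT/WT, against 366 (358 to 373) in microglia of neither list, and at 571 (466 to 692) in 33 cells of Disc1 LI/LI, against 375 (361 to 390). The log2 ratio was 0.75 (0.60 to 0.90) and 0.61 (0.31 to 0.89). Since these cells were deeper, with a median of 4984 and 4190 UMIs against 4212.5 and 3705, each cell was also thinned to 1000 UMIs. Then 44.6% (34.7% to 54.8%) and 45.5% (28.1% to 63.6%) of them had a UMI of Fcgr1, against 30.3% and 32.0% of microglia of neither list, and before thinning 95.1% and 93.9% had one against 76.3% and 73.6%. The thinned interval in Disc1 LI/LI held the whole interval of its comparison, 29.8% to 34.2%, so the difference was resolved by the share in Disc1 WT/WT alone. Fcgr2b, at 317 against 322 and at 244 against 259, and Fcer1g, at 3509 against 3356 and at 4163 against 4139, differed little between the same cells. Fcgr3 was at 1046 against 1098 and at 1286 against 1206. Its thinned share was nevertheless higher in the interferon cells of Disc1 WT/WT, at 78.2% (68.9% to 85.8%) against 65.7% (64.4% to 66.9%). In Disc1 LI/LI that share was 78.8% (61.1% to 91.0%) against 68.2% (65.9% to 70.4%). A higher thinned share was thus not particular to Fcgr1. Fcgr4 was at 44.3 (19.1 to 87.4) against 17.7 (14.8 to 21.1) in Disc1 LI/LI, which rests on 8 UMIs, and at 17.7 against 14.4 in Disc1 WT/WT.

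Microglia with at least 3 disease-associated genes, such as Cst7, Lpl and Itgax, numbered 358 and 164. Of 12 listed genes, 11 were measured. In Disc1 LI/LI their Fcgr4 was at 35.9 (24.9 to 50.2), 2.02-fold above microglia of neither list, and in Disc1 WT/WT at 16.8 (12.1 to 22.6), 1.17-fold above. The interval of the log2 ratio, -0.27 to 0.69 in Disc1 WT/WT and 0.43 to 1.57 in Disc1 LI/LI, overlapped between the libraries. The other 5 members were at 0.915-fold to 1.05-fold of microglia of neither list in both libraries.

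The make-up of the Fcγ receptor UMIs differed between groups of cells. The activating share, the UMIs of Fcgr1, Fcgr3 and Fcgr4 among those of these 3 genes and Fcgr2b, is a share of RNA counts and not of receptors. It was 82.2% (81.8% to 82.5%) in Disc1 WT/WT microglia and 86.0% (85.4% to 86.6%) in Disc1 LI/LI microglia. Border macrophage list cells had 65.8% (62.9% to 68.5%) and 67.9% (61.2% to 74.1%), the lowest of the groups with at least 100 such UMIs in Disc1 WT/WT. In Disc1 LI/LI the dendritic list was at 61.6% (56.1% to 66.9%), with an interval overlapping that of the border macrophage list, against 71.2% (68.0% to 74.3%) in Disc1 WT/WT. Classical monocyte list cells had 74.4% and 74.5%, equal within their counting error. In nonclassical monocyte list cells Fcgr4 alone made up 41.8% and 60.9% of these UMIs, against 0.816% and 1.10% in microglia, and the activating share was 78.1% (70.5% to 84.5%) and 91.0% (86.6% to 94.3%). Neutrophils had 86.2% (82.5% to 89.4%) and 90.7% (90.1% to 91.4%). Other cells had 72.7% (71.15% to 74.11%) and 75.0% (74.13% to 75.81%), with intervals that barely missed each other. Between the libraries the intervals of all 3 classes and of the nonclassical monocyte and dendritic lists did not overlap. The dendritic list was lower in Disc1 LI/LI and the rest higher. For neutrophils and other cells this order turned under other choices of cells, given in the last section. With 1 library per genotype there is no measure of how far such shares vary between pools.

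**Figure D2:**
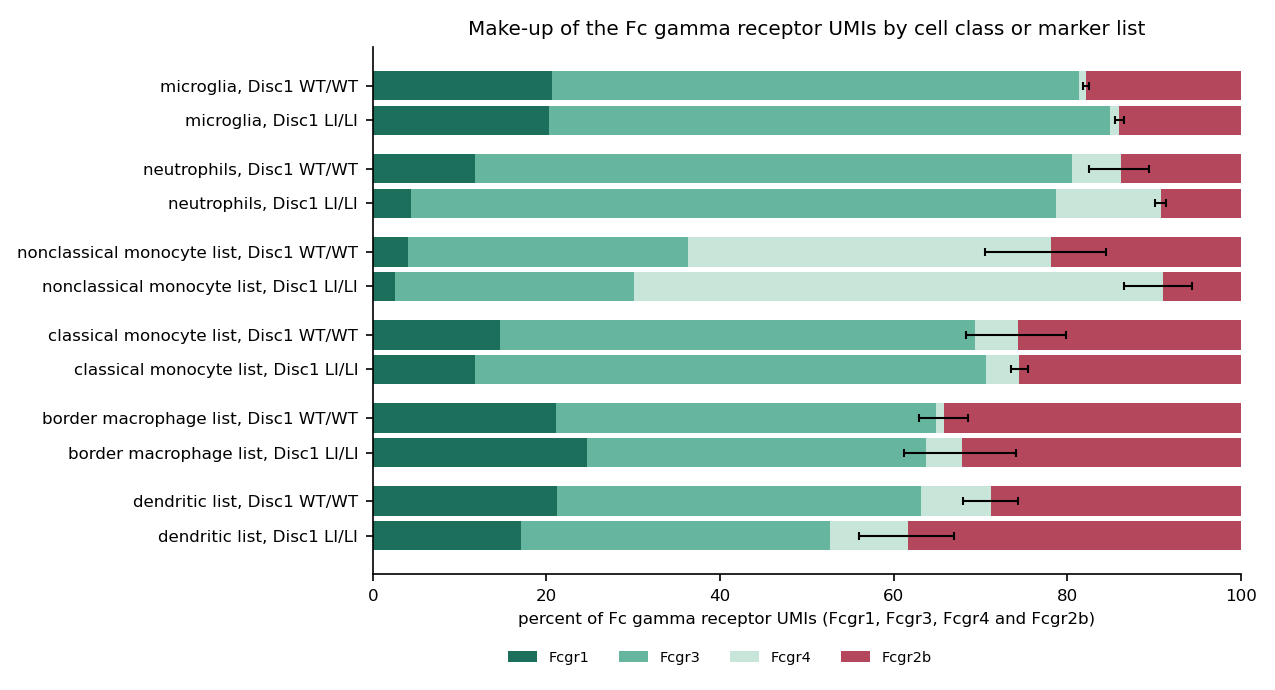
Percent of the Fcγ receptor UMIs of each group that came from Fcgr1, Fcgr3, Fcgr4 and Fcgr2b, with 1 bar per library. Black lines mark the 95% exact binomial interval of the activating share, which was 82.2% and 86.0% in microglia and 65.8% and 67.9% in border macrophage list cells.

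Between genotypes, no member was past 1.5-fold in microglia. Genes were compared when they had a mean of at least 50 CPM, with 0.5 counts added for the call, and 5 members met this. Of 3255 genes compared, 0.983% were at least 1.5-fold higher in Disc1 LI/LI and 11.1% at least 1.5-fold lower, and a count of 0 among 5 is near these shares. TMM scaling, which is meant to allow for differences in make-up, turned the shares to 2.31% and 4.89% and left the count at 0. The log2 ratio of Disc1 LI/LI to Disc1 WT/WT was 0.03 (-0.03 to 0.09) for Fcgr1, 0.14 (0.11 to 0.18) for Fcgr3, 0.29 (0.28 to 0.31) for Fcer1g and 0.12 (0.0067 to 0.24) for Fcgrt. Fcgr2b was lower in Disc1 LI/LI, at -0.30 (-0.36 to -0.23). Fcgr4, below the level required, was at 0.48 (0.22 to 0.74). The inhibitory receptor was thus the only member below 0, and every step was smaller than 1.5-fold.

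Ratios in microglia moved with the length of the gene. With the genes split by length into 5 classes of equal size, the median log2 ratio was 0.21 in the shortest class and -0.46 in the longest, and -0.09 over all. Fcer1g, at 0.29, is in the shortest class. Fcgr1, Fcgr3 and Fcgrt are in class 2, with a median of 0.07, and Fcgr2b in class 3, with a median of -0.10. From the shortest class to the longest, the median ran from 0.20 to -0.68 in neutrophils and from 0.38 to -0.56 in other cells. The part of gene length in the members' ratios was not tested in microglia, neutrophils or other cells. RNA of neutrophils also differed, since 5428 of the Disc1 WT/WT microglia but 157 of the Disc1 LI/LI microglia had no UMI of S100a8 or S100a9. Between these, a choice made after the values above were seen, Fcgr2b was at -0.13 and Fcgr1 at 0.24. The choice left few Disc1 LI/LI microglia, and cells with few UMIs are more likely to have none of S100a8 or S100a9. The part of depth in these ratios was not tested.

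**Figure D3:**
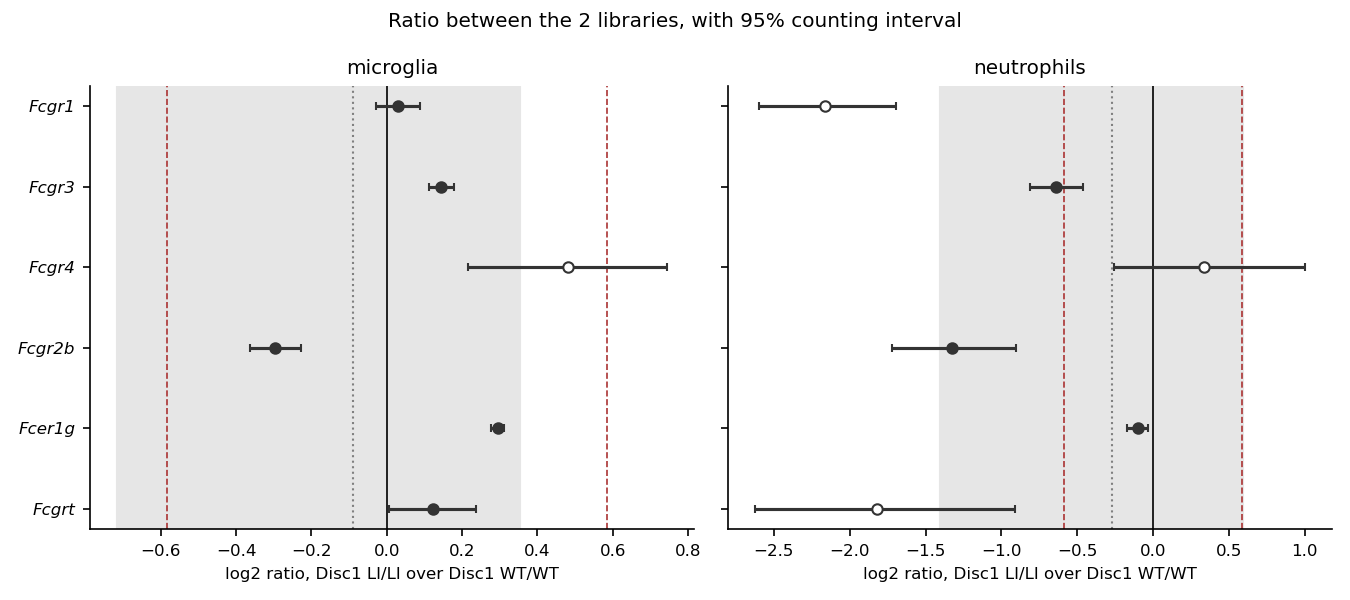
Log2 ratio of Disc1 LI/LI to Disc1 WT/WT for each member in microglia and neutrophils, with its 95% counting interval. Open points mark members under 50 CPM, the grey band runs from the 5th to the 95th percentile of all genes compared (-0.72 to 0.35 in microglia, -1.40 to 0.59 in neutrophils), the dotted line is their median and the dashed lines mark 1.5-fold. No member passed a dashed line in microglia.

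In neutrophils 2 of the 3 members compared, Fcgr3 and Fcgr2b, were at least 1.5-fold lower in Disc1 LI/LI and none was higher. Of 2039 genes compared there, 29.6% were lower and 5.1% higher, a split that TMM scaling turned to 7.91% and 32.0%. Fcgr3 was at 418 and 269 (log2 ratio -0.64, -0.81 to -0.46) and Fcgr2b at 83.9 and 33.5 (-1.32, -1.72 to -0.91). Under TMM scaling Fcgr3 was at -0.10 (-0.27 to 0.08) and no longer past the fold, and Fcgr2b at -0.79 (-1.17 to -0.36). Fcer1g was at 2707 and 2523 (-0.10, -0.17 to -0.03), a direction that turned to 0.44 under TMM scaling. Fcgr1 (71.9 and 16.1) and Fcgrt (21.0 and 5.93) were also lower but under the level required, and Fcgr4 was at 0.33 (-0.26 to 1.00).

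Microglial RNA, summed over the neutrophils, moved with these ratios. The 14 microglia markers, 6 of them the gate genes, were at 15.2% to 27.0% of their microglial level in the 116 Disc1 WT/WT neutrophils and at 2.83% to 11.1% in the 3622 Disc1 LI/LI neutrophils. Fcgr1, at 19.4% and 4.25%, and Fcgrt, at 23.2% and 6.04%, fell inside these ranges in both libraries, and Fcgr2b, at 26.2%, did so in Disc1 WT/WT. The upper end in Disc1 LI/LI was set by Selplg alone. The other 13 markers there ended at 4.15%, below both Fcgr1 and Fcgrt. Fcgr3 (38.4% and 22.3%), Fcer1g (80.4% and 61.1%) and Fcgr4 (236% and 213%) lay above them in both. All these percents come from UMIs summed over cells, and the typical neutrophil differed less between the libraries. Summed, the markers outside the gate made up 19563 and 5015.5 CPM of neutrophils, but 1703 and 1180 CPM in the median cell. Among the 116 and 3622 neutrophils, 11 and 57 also reached the microglia gate. The part of these cells in the percents was not tested.

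The values were therefore also taken in the 60 Disc1 WT/WT and 2780 Disc1 LI/LI neutrophils with no UMI of the 6 gate genes, a choice made after the values above were seen. The 8 microglia markers outside the gate then fell to a median of 1.12% and 0.716% of the microglial level. Fcgr3 was at 325 (260 to 402) and 256 (248 to 265) CPM, Fcgr4 at 49.7 (26.5 to 85.0) and 46.2 (42.8 to 49.9) and Fcer1g at 2401 (2217 to 2596) and 2571 (2545 to 2597). Fcgr2b was at 22.9 (8.42 to 49.9) and 20.3 (18.0 to 22.8), from 6 UMIs in Disc1 WT/WT. In these cells the levels of Fcgr4, Fcer1g and Fcgr2b overlapped between the libraries in their counting intervals, and those of Fcgr3 overlapped at their edges. Only Fcgr3 and Fcer1g reached the mean of 50 CPM required for a comparison here, and neither was past 1.5-fold. Fcgr1 was low, at 7.65 (0.926 to 27.6) and 3.29 (2.42 to 4.38), as was Fcgrt, at 7.65 and 1.96, with 2 UMIs each in Disc1 WT/WT. As a percent of the microglial level, Fcgr4 (340% and 226%), Fcer1g (71.3% and 62.2%) and Fcgr3 (29.8% and 21.3%) lay above all 8 markers, which ran from 0.783% to 13.02% and from 0.399% to 9.64%, and Fcgr1 (2.06% and 0.870%), Fcgr2b (7.17% and 7.79%) and Fcgrt (8.47% and 2.00%) lay below their upper end. That end was again Selplg alone, which had a UMI in 58.2% of these neutrophils in Disc1 LI/LI. The other 7 markers reached 1.40% and 1.15%, so Fcgr2b and Fcgrt lay above these 7 in both libraries and Fcgr1 did so in Disc1 WT/WT.

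**Figure D4:**
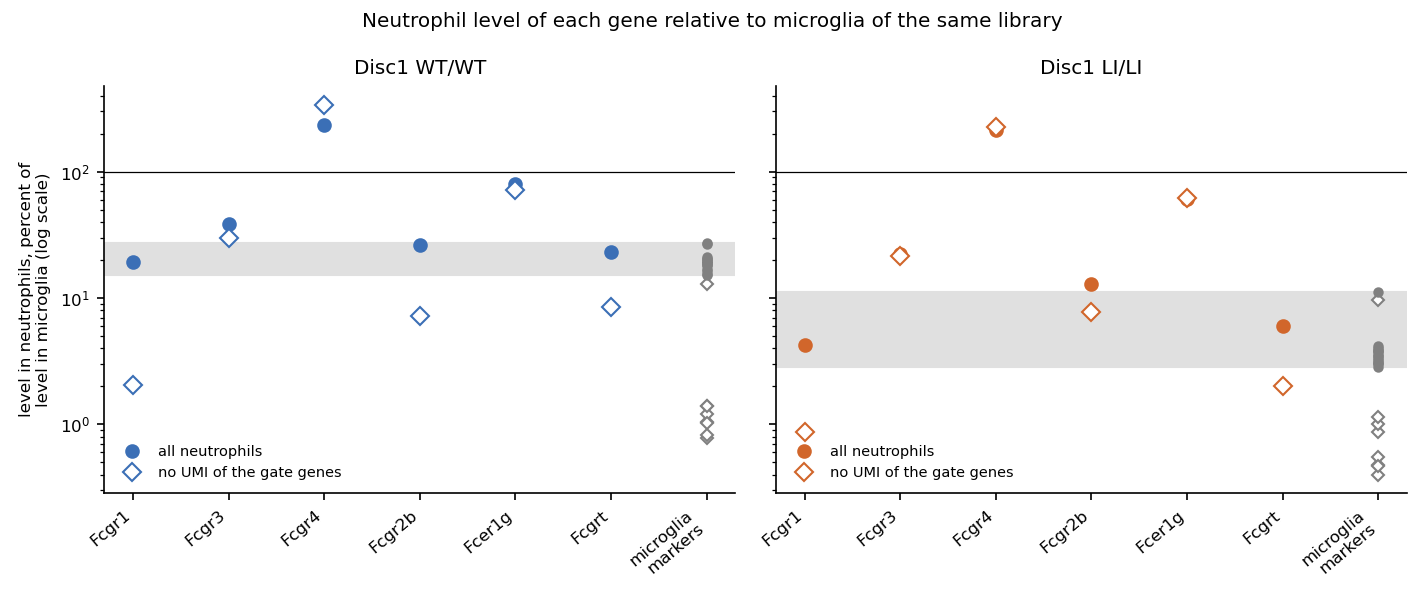
Level in neutrophils as a percent of the level in microglia of the same library (log scale), for all neutrophils (circles) and for those with no UMI of the 6 gate genes (diamonds). Grey points give the microglia markers and the grey band their range for all neutrophils, 15.2% to 27.0% in one library and 2.83% to 11.1% in the other, the 11.1% being Selplg. Fcgr4, Fcer1g and Fcgr3 lay above the markers with either choice of cells.

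Set against microglia of the same library, 2 members were at least 4-fold lower in the neutrophils of Disc1 WT/WT (Fcgr1 and Fcgrt) and 4 in those of Disc1 LI/LI (Fcgr1, Fcgr3, Fcgr2b and Fcgrt), and none of the 5 compared was 4-fold higher. Of all genes compared, 12.2% were lower and 7.95% higher in Disc1 WT/WT, and 21.8% lower and 9.27% higher in Disc1 LI/LI. Under TMM scaling these became 0.240% and 14.3%, and 7.85% and 21.4%. Fcgr1 was 5.15-fold and 23.5-fold lower, Fcgrt 4.30-fold and 16.6-fold lower. These folds are over all neutrophils, and the part of microglial RNA in them was not tested. In neutrophils with no UMI of the gate genes, Fcgr1 was at 2.06% and 0.870% of the microglial level and Fcgrt at 8.47% and 2.00%. Fcgr4 was higher in neutrophils, 2.36-fold (log2 1.24, 0.56 to 1.84) and 2.13-fold (log2 1.09, 0.85 to 1.33), and it stayed above 0 in all alternatives run. The neutrophil markers in microglia gave no more than 0.19% and 1.99% of their neutrophil level, against 42.4% and 47.0% for Fcgr4. For Fcer1g the log2 ratio was -0.32 and -0.71, and 0.57 and 0.61 under TMM scaling, so no direction is given. The remaining 4 members were lower in neutrophils under all alternatives run.

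Within neutrophils, Fcgr3 and Fcgr4 were higher in cells with less of the granule genes Ngp, Camp and Ltf, which are made before neutrophils mature. In Disc1 LI/LI the 1991 cells with under 1% of UMIs from these genes held Fcgr3 at 427 (412 to 442) and Fcgr4 at 68.7 (62.7 to 75.1), and the 1631 cells above held 192 (185 to 199) and 31.2 (28.4 to 34.2). The log2 ratios were 1.15 (1.08 to 1.23) and 1.14 (0.95 to 1.33). In Disc1 WT/WT Fcgr3 was at 582 in 66 cells and 326 in 50 (0.84, 0.49 to 1.18), and Fcgr4 at 41.5 and 30.5 (0.45, -0.90 to 1.75), which counting error does not separate. The median log2 ratio of all genes compared was 0.35 and 0.33, in the same direction. The summed microglia markers outside the gate were also higher in the cells with less of the granule genes, at 27492 against 15087 CPM in Disc1 WT/WT and 7579 against 3768 in Disc1 LI/LI. Fcer1g was nearly level in Disc1 LI/LI, at 2549 and 2510. Fcgr1 had a like ratio in Disc1 LI/LI, 25.5 against 11.5 (1.15, 0.84 to 1.46), and the part of microglial RNA in the ratio of Fcgr3 was not tested. The share of cells with a UMI of Fcgr3 hardly differed, 70.0% and 72.3% in Disc1 LI/LI, but the groups had medians of 2765 and 7055 UMIs. After thinning to 1000 UMIs, with 4 of the Disc1 LI/LI neutrophils left out, it was 36.1% under and 17.2% above the threshold. Of the Disc1 LI/LI neutrophils, 105 lay within 20% of the granule threshold.

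A share of cells with a UMI also needs a background, which T list cells give, since T cells are not known to use Fcγ receptors. They had a median of 4731 and 4618 UMIs, against 4844.5 and 4194 in neutrophils. Fcgr1 had a UMI in 15.5% and 5.16% of neutrophils, below the 27.5% and 16.5% of T list cells. Fcgr2b, in 26.7% and 12.5% of neutrophils against 21.6% and 21.5% of T list cells, was lower than in T list cells in Disc1 LI/LI. Summed over cells, microglia markers were at a median of 17.0% and 13.7% of their microglial level in T list cells but 19.2% and 3.50% in neutrophils. In the median cell, the markers outside the gate together made up 9993 and 8048 CPM in T list cells, against 1703 and 1180 in neutrophils. The typical T list cell thus held more microglial RNA in both libraries, and T list cells are no matched background for Fcgr1 and Fcgr2b. Fcgr3, in 76.7% and 71.0% against 45.1% and 46.8%, and Fcgr4, in 17.2% and 21.2% against 1.96% and 2.53%, were above it in both libraries. After thinning, Fcgr3 had a UMI in 37.4% and 27.6% of neutrophils against 17.6% and 15.2% of T list cells. In microglia Fcgr4 had a UMI in 6.02% and 7.33% of cells, and after thinning in 1.33% and 2.02%, where 0 of 51 and 0 of 79 T list cells allow up to 6.98% and 4.56% (exact binomial upper bounds). Against T list cells, whether Fcgr4 in microglia is above background was not resolved at this depth. Before thinning, the log2 ratio of T list cells to microglia was -1.95 (-7.26 to 0.53) and -1.55 (-3.85 to 0.02). Both intervals held 0. NK list cells had no UMI of Fcgr4, and the upper bound of their log2 ratio to microglia was 2.02 and -0.22. The counting interval thus placed NK list cells below microglia in Disc1 LI/LI alone.

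**Figure D5:**
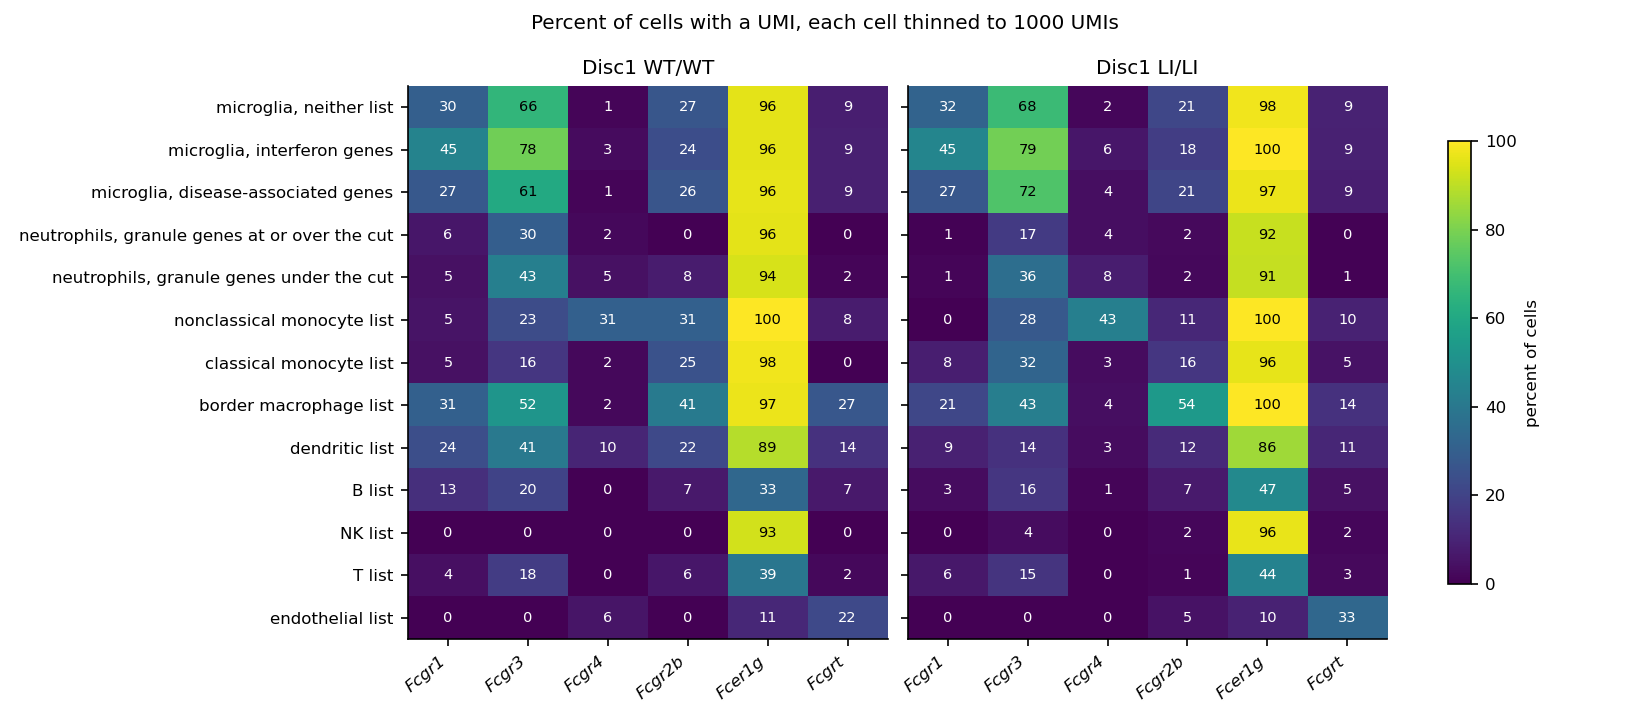
Percent of cells with a UMI of each member after every cell was thinned to 1000 UMIs, by group and library, with the percent written in each field. Fcgr1 was found in 44.6% and 45.5% of microglia with interferon genes against 30.3% and 32.0% of microglia of neither list, and Fcgr4 mainly in nonclassical monocyte list cells.

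The members were also counted together in each cell. At 1000 UMIs, 43.7% and 42.7% of microglia had UMIs of exactly 2 members, and 0.576% and 0.466% had none. Among neutrophils 56.5% and 61.9% had exactly 1. Microglia of both libraries were alike in this count, and 104 and 17 shallower cells were left out.

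The other cells differed in make-up between the libraries, and the part of this in the members' levels was not tested. Of 5 members compared, Fcgr1 (198 and 67.9), Fcgr2b (275 and 144) and Fcgrt (130 and 47.9) were at least 1.5-fold lower in Disc1 LI/LI, where 22.5% of 2761 genes were lower and 17.6% higher. The classical monocyte list held 44 and 1337 cells, and the border macrophage list 159 and 30. Within the classical monocyte list, the members were at 82.0 and 76.9 for Fcgr1, 143 and 166 for Fcgr2b and 46.9 and 49.95 for Fcgrt, all with overlapping intervals. There Fcgr3, at 305 (254 to 362) and 383 (371 to 394), was higher in Disc1 LI/LI, as was Fcer1g, at 3097 (2933 to 3269) and 3605 (3570 to 3640). Within the 232 and 281 unassigned cells, the log2 ratio was -1.16 (-1.45 to -0.87) for Fcgr1 and -0.93 (-1.09 to -0.76) for Fcgr3. It was -0.72 (-0.99 to -0.45) for Fcgr2b, -0.95 (-1.42 to -0.49) for Fcgrt and -0.14 (-0.21 to -0.07) for Fcer1g. Fcgr4 went the other way, at 0.92 (0.30 to 1.58). Dendritic list cells also differed, with Fcgr3 at 407 (365 to 453) and 125 (104 to 151) and Fcgr1 at 206 (176 to 239) and 59.99 (45.2 to 78.1). The MHC class II genes H2-Aa, H2-Ab1 and H2-Eb1 are enough to reach this list, so its cells need not be dendritic cells. Microglia markers in the dendritic list cells were at a median of 12.1% and 4.30% of the microglial level, and C1qa was at 5181 and 1770 CPM. The part of microglial RNA, or of the kinds of cell in the list, in the difference was not tested.

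Across 23 groups of at least 30 cells from both libraries, the pattern of each member was set beside those of 5996 genes by Pearson's correlation of log2(CPM + 1). The groups share libraries, so these are descriptions. Fcgr1 was most like P2ry6, Abca9 and Aif1 (r = 0.96, 0.96 and 0.96). Fcgr3 was most like Itm2b, Atp6v0b and Tcn2 (0.93, 0.92 and 0.91). Fcgr2b was most like the lysosomal enzyme genes Asah1 and Lipa, then Cd302 (0.96, 0.94 and 0.94), and Fcgrt like Cd68, Adgre1 and Lifr (0.93, 0.91 and 0.91). Fcer1g was most like Tyrobp, the other ITAM adaptor of myeloid cells (0.89), then Dleu2 and Rap2a (0.82 and 0.80). Fcgr4 was most like Lst1, Ear2 and Sgms1 (0.86, 0.85 and 0.84), of which Ear2 is in the list that chose the nonclassical monocytes. Among the members, Fcgr4 was least like Fcgr1 (0.09), and Fcgr2b and Fcgrt were most alike (0.88).

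Of the genes that carry the signal of the activating receptors, 15 of 20 listed were compared in microglia and none was past 1.5-fold, with a median log2 ratio of -0.29 against -0.09 for all genes. Ratios in microglia fell with gene length, from a median of 0.21 in the shortest class to -0.46 in the longest. The genes of this paragraph were not matched for length, and the part of length in their ratios was not tested. The highest of them, the Src-family kinase gene Lyn, was at 725 and 533 CPM (-0.44, -0.49 to -0.40). Syk, whose kinase binds the phosphorylated ITAM, was at 98.4 and 66.7 (-0.56, -0.70 to -0.43), and Rac2 at 136 and 198 (0.54, 0.45 to 0.62). Rac2, a small GTPase gene of blood cells, was the highest of the list in neutrophils, at 992 and 1344. Of the 7 inhibitory genes 3 were compared and none was past 1.5-fold, with a median of -0.11. Inpp5d, which encodes the phosphatase SHIP1 recruited by FcγRIIB, was at 438 and 358 (-0.29, -0.35 to -0.24). Ptpn6, which encodes the phosphatase SHP-1, led the inhibitory genes in neutrophils, at 162 and 129.6, and was at 174 and 161 in microglia. Tyrobp, the only ITAM adaptor besides Fcer1g at the level required, was at 3175 and 4334 (0.45, 0.43 to 0.47). In neutrophils 5 of 13 activating genes and 1 of 3 inhibitory genes were lower, beside 29.6% of all genes.

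Of the 12 other Fc receptor genes listed, none reached a mean of 50 CPM in any of the 3 classes. The highest in microglia was Fcrl1, at 23.7 and 29.6, and in the other cells Fcmr, the IgM receptor gene, at 18.4 in Disc1 WT/WT and Fcer1a at 22.4 in Disc1 LI/LI. Fcer1a and Ms4a2, the remaining chains of the IgE receptor that signals through Fcer1g, were at 2229 and 1473 in the 14 basophil and mast list cells of Disc1 LI/LI, where Fcer1g was at 3798 (3499 to 4117).

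IgG, the ligand, is made by plasma cells and not by microglia. Of the immunoglobulin chains, Igkc, the kappa light chain, was at 8.95 and 148 in microglia (log2 ratio 4.05, 3.86 to 4.25), the only gene of the lists past 1.5-fold in microglia among those at the level required. Among Disc1 WT/WT microglia, 10 cells held 92.0% of its UMIs, and without the 10 richest cells of each library it was at 0.716 and 92.5. The IgG chain Ighg1 had 0 and 25 UMIs in microglia. In the other cells of Disc1 LI/LI, Ighg1 had 5584 UMIs, of which 1 cell held 5323, and B list cells numbered 15 and 153. Igkc in Disc1 LI/LI neutrophils was at 106, so it was spread over classes, and the part of free RNA in its level in microglia was not tested. Ighm, at 199 and 203 in microglia, was level between the libraries.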

How the data were processed

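Per the labels and the file headers, the authors aligned reads to mm10 with STAR and made the UMI tables with Cell Ranger 6.1.2. The deposited counts are raw, and Seurat 3.0.1, also named in the processing notes, was not rerun. Barcodes under 200 genes or over 10% mitochondrial UMIs were dropped, and no doublet caller was run. Cells were classed by marker genes, 11 and 57 cells that reached both gates counting as neutrophils. Other cells were named by the marker list, of 12, with most genes detected, at least 3 being needed and ties left unassigned. UMIs were summed over the cells of a class and library and divided by their total and given per 1000000 UMIs (CPM). Ratios have a 95% Clopper-Pearson interval and no test, since each genotype has 1 library. The named genes are the 6 members, the 3 genes most like each, and pathway genes past 1.5-fold in microglia or highest of their list in a class, and Syk, Ighg1 and Ms4a2, which were named after their values were seen. The members and lists were chosen with earlier results of these data known. Thinned cells were drawn to 1000 UMIs with a fixed seed. The ratio step was tested on simulated data. Alternatives changed the cell filter, gates, scaling (TMM, edgeR 4.0.16), totals and gene filter. Positions and lengths came from GENCODE for mm10, with a length for 32235 genes. The work used R 4.3.3 and Python 3.11.15 with pandas 2.3.3, matplotlib 3.10.9, numpy 2.4.6 and scipy 1.17.1.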

Additional observations from a re-analysis of the deposited data

Results flagged for a closer look

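For 3 members the log2 ratio of Disc1 LI/LI to Disc1 WT/WT had opposite signs in microglia and neutrophils, with both counting intervals away from 0. The difference between the classes, microglia minus neutrophils, was 0.78 for Fcgr3, 0.40 for Fcer1g and 1.95 for Fcgrt. The difference itself was not tested, since each genotype gave 1 library. How many of all genes had opposite signs was not counted, so the count of 3 is not read as particular to these members. The median log2 ratio of all genes compared was -0.09 in microglia and -0.27 in neutrophils. Fcgrt, at 21.0 and 5.93 CPM in neutrophils, was under the level required there. At 23.2% and 6.04% of its microglial level, it lay within the range of the microglia markers in both libraries, in Disc1 LI/LI through Selplg alone. In neutrophils with no UMI of the 6 microglia gate genes, the ratio was -0.35 for Fcgr3 and 0.10 for Fcer1g, and that of Fcgrt rests on 2 UMIs in Disc1 WT/WT. Under TMM scaling Fcer1g in neutrophils was at 0.44, so its sign depended on the scaling, and Fcgr3 was at -0.10 with an interval that held 0.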

How the results depend on the processing

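The count of members past 1.5-fold in microglia was 0 under all alternatives run. In neutrophils the count of 2 became 1 without the 5% of cells with the most UMIs, under TMM scaling and at 1000 UMIs a cell. It became 0 with the mean over cells and in cells with no UMI of the gate genes (chosen after seeing the data). It became 4 with at least 10 CPM or no filter on genes, where members under 50 CPM were compared too. Shares of all genes are given above for the original settings and TMM scaling alone. The other counts of this section have none beside them, so their changes are not read as results about the members. TMM scaling moved the median of all genes in neutrophils from -0.27 to 0.29. Against microglia, the count of 2 in Disc1 WT/WT became 1 with at least 1000 genes a cell and at 1000 UMIs a cell, and 0 under TMM scaling and without mitochondrial, hemoglobin, S100a8 and S100a9 UMIs in the totals. In Disc1 LI/LI the count of 4 became 1 under TMM scaling. The activating share of neutrophils without gate gene UMIs was 94.3% and 93.8%, the reverse of the order in all neutrophils. That of Disc1 LI/LI neutrophils was 87.3% with at least 1000 genes a cell and 93.02% without the deepest 5%. Other cells had 80.1% and 79.0% at a microglia threshold of 1%, again the reverse of the original order. They had 77.8% in Disc1 LI/LI at an S100a8 and S100a9 threshold of 0.1%. In Disc1 LI/LI microglia with no S100a8 or S100a9 UMI the activating share was 85.3%. Fcgr1 in interferon-gene microglia stayed higher, at 0.97 and 0.80 with at least 4 genes and 0.93 and 0.91 at 1000 UMIs a cell, and Fcgr4 in nonclassical monocyte list cells stayed between 4.93 and 5.10. Leaving out a replicate was not possible, and no paired analysis was possible because each genotype has 1 library.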
